A study of Mus musculus with 8 samples.

Results

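The 35 genes described here act in mitosis and cytokinesis, and they were taken by gene name from the 55487 genes listed in the deposited tables. All 35 were found, and all 35 were among the 18648 genes that passed the filter on low counts, with no library holding under 432 counts for any of them. The RNA came from 4 mouse lines of lung squamous cell carcinoma (LUSC), derived from genetically engineered mice, and was sequenced in bulk in a study of the loss of ACKR3, an atypical chemokine receptor. Lines PLA and PLA4 (the PLA lines) were set against lines PL1 and PL12 (the PL lines), with 2 libraries per line and 8 in all. The labels do not spell out the letters, name no allele, age or treatment, and do not say that the libraries of a line were separate cultures, so p-values between lines measure only how much these libraries vary, which can be technical. Each group is 1 line, so the loss of ACKR3 cannot be told apart from whatever else sets a line apart.

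Cells enter mitosis when the kinase CDK1, bound to cyclin B, is switched on. Chromosomes are then packed, attached to a spindle through their kinetochores and held until the spindle checkpoint is satisfied, when the anaphase-promoting complex (APC/C) with CDC20 releases them, and the cell divides at the central spindle. Most genes of this programme are transcribed late in the cell cycle. In human and mouse cells they are repressed in quiescence through the DREAM complex and activated by B-MYB and FOXM1, in part through a promoter element called the cell cycle genes homology region (CHR), with the letters TTTGAA, and through CCAAT boxes bound by NF-Y. The level of the programme in bulk RNA therefore depends both on how many cells are cycling and on the RNA made per cell, and fewer cycling cells and less RNA per cell cannot be told apart here.

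The promoters of the members are shown for motifs that many of these genes hold, though not all. RefSeq promoter windows (GRCm38.p6, 250 bases before to 50 after the gene start) were held for 31 of the 35, and Aurkb, Tpx2, Ccna2 and Kif20a are only named. The letters TTTGAA were found on either strand in the windows of 25 of 31 members (80.6%), against 20.2% of the 27025 genes of the table. Printed is the first member of each role with a match inside the stretch shown, with Kif4 and Kif23, the members that differed in every comparison between the families. Each stretch runs 5′ to 3′ on the gene's strand over positions -100 to 25 relative to the start, 125 bases, in lower case, with TTTGAA or its reverse complement TTCAAA in capitals.
Cdk1 (chr10:69352888-69353012, minus strand): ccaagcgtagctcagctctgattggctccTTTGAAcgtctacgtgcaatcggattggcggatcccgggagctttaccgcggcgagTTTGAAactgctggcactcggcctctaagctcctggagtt
Ttk (chr9:83834589-83834713, plus strand): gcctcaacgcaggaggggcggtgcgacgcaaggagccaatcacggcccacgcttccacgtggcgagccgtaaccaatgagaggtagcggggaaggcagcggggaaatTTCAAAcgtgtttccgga
Cdca8 (chr4:124936893-124937017, minus strand): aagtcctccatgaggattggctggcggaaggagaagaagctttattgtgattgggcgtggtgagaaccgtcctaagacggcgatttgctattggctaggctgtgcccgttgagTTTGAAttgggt
Cenpa (chr5:30666786-30666910, plus strand): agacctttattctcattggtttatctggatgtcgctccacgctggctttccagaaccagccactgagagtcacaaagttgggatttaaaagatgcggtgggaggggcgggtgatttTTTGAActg
Kif11 (chr19:37376282-37376406, plus strand): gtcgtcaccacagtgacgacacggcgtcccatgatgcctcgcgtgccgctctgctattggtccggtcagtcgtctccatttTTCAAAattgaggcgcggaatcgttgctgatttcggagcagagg
Kif4 (chrX:100625965-100626089, plus strand): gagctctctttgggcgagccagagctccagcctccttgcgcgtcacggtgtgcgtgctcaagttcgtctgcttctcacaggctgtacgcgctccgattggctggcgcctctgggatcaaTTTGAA
Hmmr (chr11:40733413-40733537, minus strand): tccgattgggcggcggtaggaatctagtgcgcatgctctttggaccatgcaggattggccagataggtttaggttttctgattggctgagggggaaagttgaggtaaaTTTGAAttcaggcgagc
Top2a (chr11:99024165-99024289, minus strand): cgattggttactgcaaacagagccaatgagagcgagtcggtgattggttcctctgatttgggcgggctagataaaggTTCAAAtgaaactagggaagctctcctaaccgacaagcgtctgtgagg
Cdc20 (chr4:118437319-118437443, minus strand): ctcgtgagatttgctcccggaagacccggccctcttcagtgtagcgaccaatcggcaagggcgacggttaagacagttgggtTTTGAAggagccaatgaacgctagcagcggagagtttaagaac
Kif23 (chr9:61946775-61946899, minus strand): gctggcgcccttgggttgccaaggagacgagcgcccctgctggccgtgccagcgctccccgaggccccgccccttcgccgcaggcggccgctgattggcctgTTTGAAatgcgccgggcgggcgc

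In Cdk1 the capitals begin 71 and 15 bases before the start, and in Top2a, Kif11 and Cdc20 they begin 23, 19 and 18 bases before it. In Kif23, Ttk, Hmmr, Cdca8, Cenpa and Kif4 they begin after the start, at positions 3, 8, 9, 14, 17 and 20. In Cdca8 the match overlaps a CCAAT match on the other strand. Matches clustered at the start: 23 of 31 members (74.2%) had one beginning between positions -40 and 50, a span chosen after the positions were seen, against 5.1% of all genes in the table. CCAAT on either strand was held by 24 of 31 members (77.4%) against 41.1% of all genes, at least 2 CCAAT by 16 (51.6%) against 13.3%, and TTTGAA together with CCAAT by 21 (67.7%) against 8.97%. No TTTGAA was found in the windows of Ccnb1, Bub1, Birc5, Nuf2, Cenpe and Nusap1. Bub1 held the variant TTCGAA, which 3 members (9.68%) and 1.8% of all genes held, and Kif2c and Mki67 had TTTGAA only far from the start. A match is a run of letters and not a tested binding site.

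**Figure D1:**
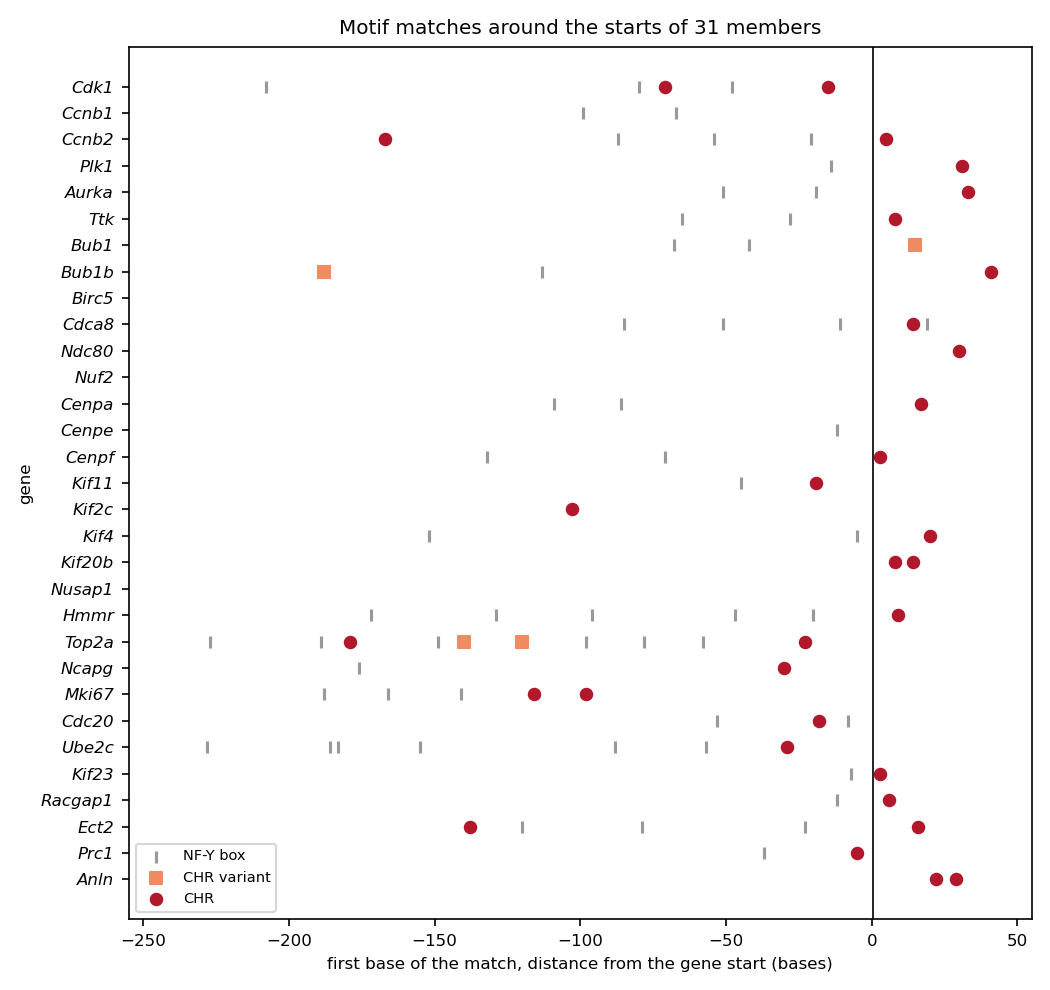
Positions of motif matches (x axis, bases from the gene start; start at the vertical line) in the promoter windows of 31 members (y axis). Red circles are the CHR motif on either strand, orange squares its variant and grey ticks the NF-Y box (CCAAT), with the window of lowest coordinate drawn for the 2 members with 2 windows. The red circles gather close to the start, where 23 of 31 members have one, and the grey ticks lie mostly before them.

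In the other lists, chosen from the same area of biology, 35 of 66 other mitosis genes with a window held TTTGAA (53%). In 25 it lay near the start (37.9%). It was held by 3 of 24 mitotic machinery genes that are not known to follow the cell cycle strongly (12.5%), such as APC/C and cohesin subunits. Of the S phase genes, 2 of 15 held it (13.3%). CCAAT was not particular to the members. It was held by 11 of 15 S phase genes (73.3%) and 10 of 15 CDK inhibitors and quiescence genes (66.7%). Of the other mitosis genes, 43 of 66 held it (65.2%), and of the mitotic machinery genes 10 of 24 (41.7%). At least 2 CCAAT were held by 8 S phase genes (53.3%) and 26 other mitosis genes (39.4%). The shares are descriptions of letters and carry no test.

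Libraries held 48858000 to 142458000 counts, and 12016 to 12507 genes reached 1 CPM (counts relative to library size, with TMM factors). Ackr3 checks the names: it had 0.0487 and 0.0254 CPM in PLA, 0.387 and 0.228 CPM in PLA4, 86.3 and 33.2 CPM in PL1, and 25.3 and 26.3 CPM in PL12. Squamous markers reached 1 CPM for 11 or 12 of 12 genes in every library, with a summed level of 16273 to 16589 CPM in PLA, 24004 to 24976 CPM in PLA4, 11545 to 21263 CPM in PL1 and 3540 to 3627 CPM in PL12, the line with the lowest Krt5 and Trp63 levels. The keratins Krt14, Krt5 and Krt6a led that list. Markers of immune cells summed to 81.7 to 86.1 CPM in PLA, 5.14 to 16.7 CPM in PLA4, 4.22 to 11.8 CPM in PL1 and 21.1 to 25.1 CPM in PL12, with 1 to 4 of 12 at 1 CPM and Ptprc, Tyrobp and Cd3e at or near 0 throughout. Itgam, Cd68 and Csf1r led that list, and Itgam, an integrin of myeloid cells, had 51.5 and 48.1 CPM in PLA and at most 1.00 CPM elsewhere. The part of these markers in the members' levels was not tested. Endothelial markers, led by Pecam1, Vwf and Kdr, summed to at most 2.64 CPM in any library.

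The 35 mitosis and cytokinesis genes formed a ladder over the lines. They were low in PLA, intermediate in PLA4, and highest in PL1 and PL12. Their median level was 12.2 and 12.2 CPM in the PLA libraries, 42.0 and 64.1 CPM in PLA4, 102 and 64.0 CPM in PL1, and 124 and 112 CPM in PL12. Together they took 0.0511% and 0.0506% of all counts in PLA. The share was 0.191% and 0.321% for PLA4, 0.439% and 0.311% for PL1, and 0.533% and 0.492% for PL12. In CPM, the line means ran PLA, PLA4, PL1, PL12 from low to high for 32 members. For the other 3, Nuf2, Cenpf and Mki67, PL1 stood above PL12. The first principal component of the members' log2(CPM + 1) values held 97.1% of their variance over the 8 libraries, and all 35 had the same sign on it.

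**Figure D2:**
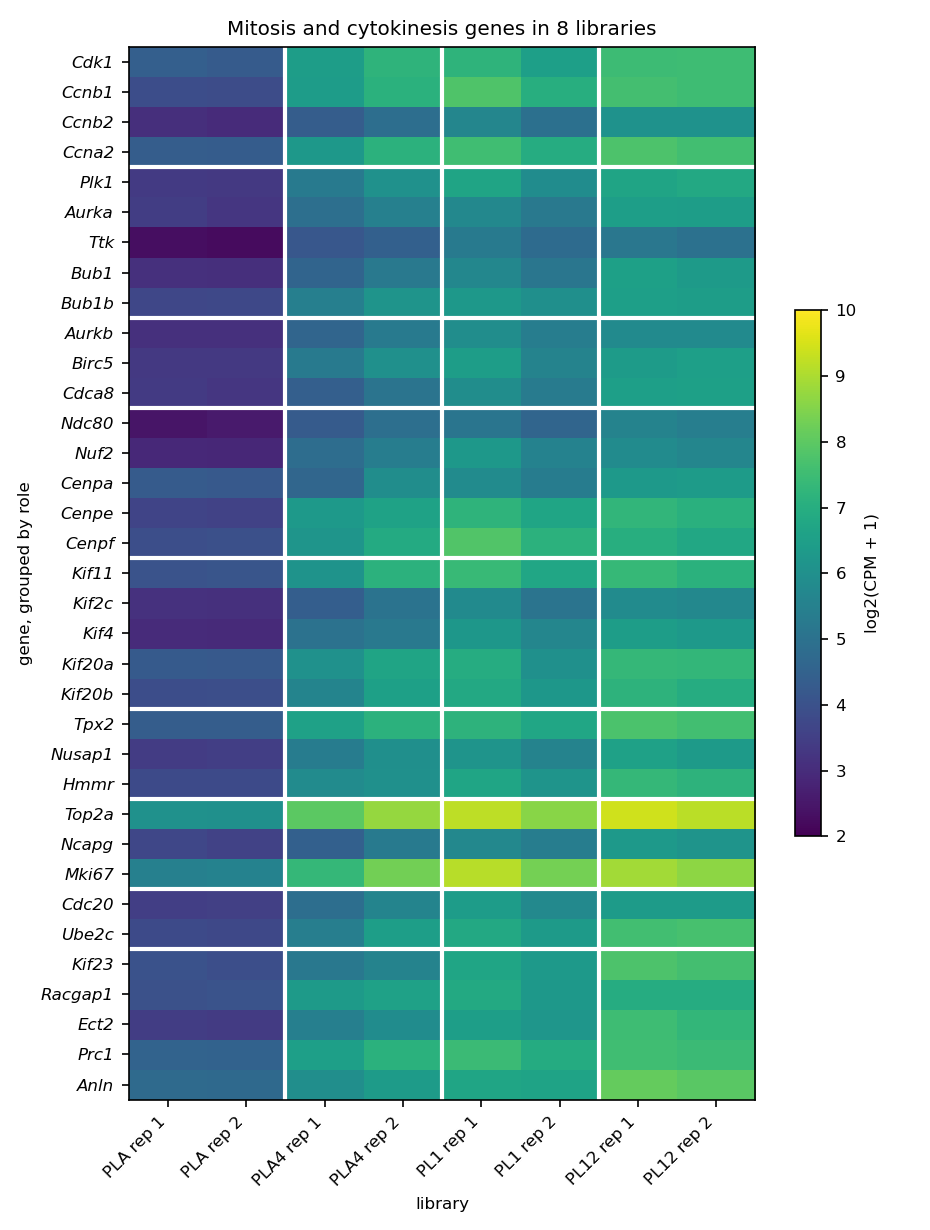
Level of each member (rows, grouped by role from CDK1 and its cyclins at the top to cytokinesis at the bottom) in each library (columns, PLA and PLA4 at left, PL1 and PL12 at right), as log2(CPM + 1) in colour. The PLA columns are the darkest for every gene, the PL12 columns are bright, and within PLA4 replicate 2 and within PL1 replicate 1 is the brighter library.

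Both PLA libraries lay below all 6 other libraries for 35 of 35 members, against 16.5% of all genes tested. All 4 libraries of the PLA lines lay below all 4 of the PL lines for 15 of 35, against 7.18% of all genes. The other 20 overlapped, mainly at PLA4 replicate 2 and PL1 replicate 2: PLA4 replicate 2 exceeded PL1 replicate 2 for 19 members. PLA4 replicate 1 was below every PL library for 33 members, all but Kif20a and Racgap1.

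The libraries of PLA4 and of PL1 stood apart from their partners. PLA4 replicate 2 was above replicate 1 for 35 of 35 members, by a median of 1.60-fold (1.13 for Hmmr to 2.50 for Cenpa), and PL1 replicate 1 was above replicate 2 for 35 of 35, by a median of 1.49-fold (1.06 for Anln to 1.93 for Kif20a). Of all genes tested, 48.9% went that way in each of these lines. By contrast, no member differed between the PLA libraries by more than 1.15-fold or between the PL12 libraries by more than 1.20-fold. PL1 replicate 2 also held 296 CPM of summed fibroblast markers, against 8.35 CPM in replicate 1, most of it Col1a1 at 254 CPM against 0.575 CPM. Postn stood at 12.3 against 5.24 CPM, Dcn at 10.7 against 0.0230 CPM, Col3a1 at 8.48 against 0.0115 CPM, Pdgfra at 4.70 against 2.47 CPM and Pdgfrb at 4.29 CPM against 0, while Lum, Thy1 and Col1a2 were near 0 in both. Summed fibroblast markers were at 28.6 and 18.9 CPM in PLA4, and at most at 1.35 CPM in any library of PLA or PL12. In PLA4, Postn stood at 18.2 and 9.65 CPM and Pdgfra at 4.67 and 7.68 CPM, so neither set PL1 replicate 2 apart. PL1 replicate 2 also held 11545 CPM of squamous markers, against 21263 CPM in replicate 1. The part of these differences in the members' levels was not tested. The fit used a spread between libraries shared by all 4 lines, so the wide spreads within PLA4 and PL1 entered every comparison. PLA4 against PL1 in turn borrowed the narrow spreads of PLA and PL12.

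Between genes, levels can be compared per length, as the TPM values (length-scaled transcript levels) that the authors deposited. On that scale Cdk1 was the highest member in PLA, PLA4 and PL1, with 39.5 and 37.0 TPM in PLA, 186 and 299 TPM in PLA4, 293 and 190 TPM in PL1, and 327 and 361 TPM in PL12. Ube2c, with 360 and 360 TPM, was about level with it in PL12. Ttk stood at the low end, with 2.19 and 2.05 TPM in PLA, 9.63 and 11.7 TPM in PLA4, 20.9 and 15.8 TPM in PL1, and 18.2 and 16.5 TPM in PL12. All members remained detected in PLA, from 1.95 TPM for Cenpf upward. In TPM, the line means of Cdk1 (242 in PLA4, 241 in PL1) and Ttk (18.3 in PL1, 17.3 in PL12) left the order seen in CPM.

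In PLA against PL1, all 35 members fell by edgeR's quasi-likelihood test with Benjamini-Hochberg adjustment over all genes, at adjusted p of at most 0.05, where 13.0% of all genes tested fell. Their median log2 fold change was -2.72, or 6.59-fold lower, ranging from -3.67 to -1.42, and the median of all genes was -0.01. The median was -2.41 without PL1 replicate 1 and -3.03 without PL1 replicate 2. In PLA against PL12, again 35 of 35 fell, where 17.3% of all genes did. The median there was -3.24, or 9.44-fold lower, ranging from -4.12 to -2.14. These comparisons share the PLA libraries.

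In PLA4 against PL1, 2 of 35 members fell, Kif23 and Kif4, where 3.93% of all genes fell, so the members' share was close to that of all genes. All 35 estimates were negative, with a median of -0.51, or 1.43-fold lower, and a range of -1.13 to -0.02. These estimates moved with the libraries: the median was -0.27 without PLA4 replicate 1, -0.93 without PLA4 replicate 2, -0.22 without PL1 replicate 1 and -0.77 without PL1 replicate 2, and 11 members turned positive under at least 1 alternative. The count depended on the library left out, and without a PLA or PL12 library it fell for the members and over all genes alike. In PLA4 against PL12, 19 of 35 fell, where 16.8% of all genes did, with a median of -0.92, or 1.89-fold lower, and a range of -2.29 to -0.34. The median was -0.84 and -0.96 without PL12 replicate 1 or 2, -0.58 without PLA4 replicate 1 and -1.42 without PLA4 replicate 2. Without a PLA or PL12 library, calls fell among the members and over all genes alike.

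**Figure D3:**
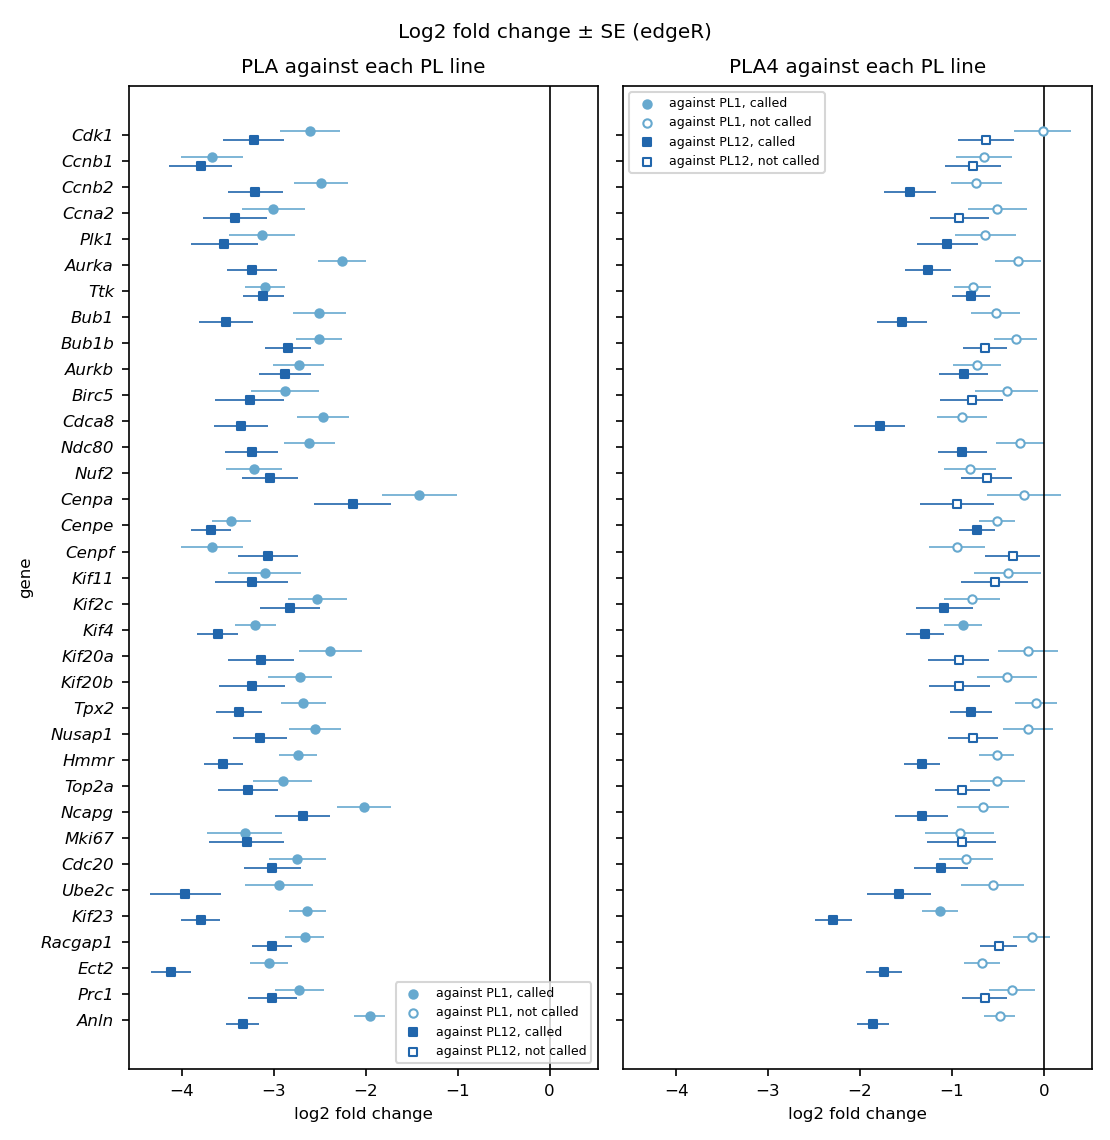
Log2 fold change (x axis, with the standard error as bars) of each member (y axis) for PLA against each PL line at left and PLA4 against each PL line at right. Filled points passed the adjusted p threshold and open points did not. All points at left are filled and lie between -4.12 and -1.42, and the points at right lie between -2.29 and -0.02.

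The lines within each family differed too. In PLA against PLA4, both with almost no Ackr3, 34 of 35 members fell, where 14.1% of all genes did, with a median of -2.35, or 5.11-fold lower, and a range of -3.02 to -1.20. The median was -2.41 without either PLA library, and -2.63 and -2.05 without PLA4 replicate 1 or 2. With a PLA library left out, calls fell among the members and over all genes alike. Cenpa was the member that missed the threshold. In PL1 against PL12, both with Ackr3, 6 of 35 fell, where 11.2% of all genes did: Anln, Kif23, Ect2, Hmmr, Aurka and Bub1. The median was -0.41, or 1.33-fold lower, with a range of -1.38 to 0.61. The median was -0.85 and -0.20 without PL1 replicate 1 or 2, and -0.44 and -0.50 without PL12 replicate 1 or 2. The count moved with the library left out, and without a PLA or PL12 library it fell over all genes too. In median size, the step from PLA to PLA4 within a family exceeded that from PLA4 to either PL line, without a test of that difference.

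With the line as the replicate, 2 PLA lines against 2 PL lines on counts summed over the libraries of a line, edgeR's quasi-likelihood test called 0 of 35 members and 0 of 18859 genes (0.00%), with a lowest adjusted p of 0.852 over all genes. At an unadjusted p under 0.05 the same test gave 2 members, Kif23 and Cdca8, where 2.07% of all genes fell. DESeq2 on the same sums called 361 genes, of which 0 were members. The 35 estimates were all negative, with a median of -1.45, or 2.74-fold lower, and a range of -2.36 to -1.08. Kif23 and Kif4 were the only members that fell in all 4 comparisons between the families, 2 of 35 where 0.767% of all genes did. This count moved with the library left out, and without a PLA or PL12 library it fell for the members and over all genes alike.

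CDK1 and its cyclins drive entry into mitosis. Cdk1 (ENSMUSG00000019942.13, GENCODE M21 on GRCm38, chromosome 10, 69335146 to 69352938, minus strand) had 20.2 and 18.6 CPM in PLA, 86.0 and 147 CPM in PLA4, 146 and 90.1 CPM in PL1, and 179 and 182 CPM in PL12. PLA was low and PL12 high, and PLA4 and PL1 covered the same range. It fell in PLA against PL1 (log2 fold change -2.60 ± 0.326 SE, edgeR adjusted p = 0.0034), and its estimate in PLA4 against PL1 was -0.02 ± 0.306 (edgeR adjusted p = 0.985). Ccnb1, the cyclin B1 that activates CDK1, had 13.7 and 13.6 CPM in PLA, 85.2 and 136 CPM in PLA4, 220 and 128 CPM in PL1, and 196 and 182 CPM in PL12. It had the largest fall of the members in PLA against PLA4 (-3.02 ± 0.329, edgeR adjusted p = 0.0025) and one of the largest in PLA against PL1 (-3.67 ± 0.339, edgeR adjusted p = 0.00152). Ccnb2, cyclin B2, was the member of this group that also fell in PLA4 against PL12 (-1.45 ± 0.283, edgeR adjusted p = 0.0103), with 7.41 and 6.97 CPM in PLA, 19.4 and 28.9 CPM in PLA4, 50.1 and 30.3 CPM in PL1, and 66.0 and 66.2 CPM in PL12. Ccna2, cyclin A2, which acts in S phase and early mitosis, fell in PLA against PL1 (-3.00) and PL12 (-3.42), with -0.51 and -0.92 for PLA4.

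Spindle and checkpoint kinases build the spindle and delay anaphase until every kinetochore is attached. All 5 fell in PLA against each PL line, with a median of -2.51 against PL1 and -3.24 against PL12, and 4 of the 5 fell in PLA4 against PL12. Bub1, a checkpoint kinase at kinetochores, had 7.71 and 7.36 CPM in PLA, 22.8 and 36.6 CPM in PLA4, 50.9 and 34.6 CPM in PL1, and 91.6 and 81.4 CPM in PL12. PL12 stood above all other libraries, and Bub1 fell in PLA4 against PL12 (-1.54 ± 0.275, edgeR adjusted p = 0.00784) and in PL1 against PL12 (-1.02 ± 0.272, edgeR adjusted p = 0.0405). Aurka, the kinase that matures centrosomes, had 9.97 and 8.65 CPM in PLA, 29.3 and 44.1 CPM in PLA4, 52.7 and 36.5 CPM in PL1, and 89.2 and 86.7 CPM in PL12, with the same order. Ttk, the kinase MPS1 that starts the checkpoint signal, was instead at one level in both PL lines: 3.92 and 3.66 CPM in PLA, 16.9 and 20.9 CPM in PLA4, 37.5 and 27.1 CPM in PL1, and 34.97 and 30.5 CPM in PL12. Its difference between PL1 and PL12 was -0.02 ± 0.202, and both PLA4 libraries were below all PL libraries. Plk1, the polo-like kinase, was called in PLA4 against PL12 at the threshold itself (-1.05 ± 0.333, edgeR adjusted p = 0.05), and Bub1b, which encodes the checkpoint protein BUBR1, was not (-0.64 ± 0.234, edgeR adjusted p = 0.0751).

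The chromosomal passenger complex corrects wrong attachments and later acts at the central spindle. Its kinase gene Aurkb fell in PLA against PL1 (-2.73), in PLA against PL12 (-2.88) and in PLA4 against PL12 (-0.87 ± 0.263, edgeR adjusted p = 0.0426). Birc5, which encodes survivin, fell in PLA against both PL lines (-2.88 against PL1, -3.26 against PL12), with -0.79 ± 0.344 in PLA4 against PL12 (edgeR adjusted p = 0.12). Cdca8, which encodes borealin, had 9.37 and 8.63 CPM in PLA, 20.6 and 32.8 CPM in PLA4, 59.9 and 39.5 CPM in PL1, and 91.0 and 93.3 CPM in PL12. Its families did not overlap, and it fell in PLA4 against PL12 by 3.45-fold (-1.78 ± 0.278, edgeR adjusted p = 0.00508), while PLA4 against PL1 missed the threshold (-0.89 ± 0.272, edgeR adjusted p = 0.091).

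Among the kinetochore and centromere genes, Ndc80 and Nuf2 encode partners in the complex that grips microtubules, Cenpa is the histone H3 variant of centromeres, Cenpe is a kinetochore kinesin and Cenpf is a large kinetochore protein. In PLA against each of the other lines, Cenpa (ENSMUSG00000029177.9, chromosome 5, 30666777 to 30674830, plus strand) had the smallest fold of the members. It had 18.5 and 17.8 CPM in PLA, 23.8 and 59.6 CPM in PLA4, 56.7 and 40.4 CPM in PL1, and 78.2 and 82.3 CPM in PL12. PLA4 replicate 1 lay close to PLA and replicate 2 above both PL1 libraries, the widest spread of any member within PLA4. Cenpa fell in PLA against PL1 by 2.67-fold (-1.42 ± 0.408, edgeR adjusted p = 0.0457) and missed the threshold in PLA against PLA4 (-1.20 ± 0.406, edgeR adjusted p = 0.0691).

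Cenpf was the reverse case in the PL lines, with 14.1 and 14.5 CPM in PLA, 70.9 and 118 CPM in PLA4, 224 and 140 CPM in PL1, and 128 and 111 CPM in PL12. PL1 held the highest libraries, and it fell in PLA against PL1 by 12.8-fold (-3.67 ± 0.334, edgeR adjusted p = 0.00149), the largest fold of that comparison. Its PL1 against PL12 estimate was 0.61 ± 0.301 (edgeR adjusted p = 0.191). Cenpe fell in PLA against PL1 by 11.02-fold and against PL12 by 12.8-fold, and in PLA4 against PL12 it fell by 1.65-fold (-0.73 ± 0.196, edgeR adjusted p = 0.03). Ndc80 also fell there (-0.89 ± 0.266, edgeR adjusted p = 0.0418), and Nuf2 did not pass (-0.62 ± 0.282, edgeR adjusted p = 0.13).

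Mitotic kinesins move chromosomes and slide or take apart microtubules. Kif4 (ENSMUSG00000034311.3, chromosome X, 100625737 to 100727214, plus strand) encodes a chromokinesin that acts on the central spindle. It had 6.91 and 6.75 CPM in PLA, 31.1 and 37.0 CPM in PLA4, 75.0 and 50.5 CPM in PL1, and 87.1 and 79.6 CPM in PL12. Its families did not overlap. It fell in PLA against PL1 (-3.20 ± 0.221, edgeR adjusted p = 8.75e-04) and, at the edge of the threshold, in PLA4 against PL1 (-0.88 ± 0.204, edgeR adjusted p = 0.0496). In PLA4 against PL12 its fall was -1.29 ± 0.206 (edgeR adjusted p = 0.00542), and in PLA against PL12 it was -3.61. Kif2c, which takes apart microtubule ends, fell in PLA4 against PL12 as well (-1.08 ± 0.308, edgeR adjusted p = 0.036). Kif11, the motor that pushes spindle poles apart, had 15.4 and 16.3 CPM in PLA, 67.5 and 139 CPM in PLA4, 167 and 105 CPM in PL1, and 162 and 138 CPM in PL12. Its PLA4 libraries differed by 2.06-fold and reached into the PL range, and it fell in PLA against both PL lines (-3.10 against PL1, -3.24 against PL12). Kif20a and Kif20b, kinesins of the central spindle and midbody, likewise fell in PLA against both PL lines and not in PLA4 (edgeR adjusted p of 0.0704 and 0.0717 for PLA4 against PL12).

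Tpx2, Nusap1 and Hmmr encode proteins that nucleate or bundle spindle microtubules. All 3 fell in PLA against each PL line. Hmmr had 13.0 and 13.0 CPM in PLA, 56.7 and 64.1 CPM in PLA4, 102 and 70.2 CPM in PL1, and 161 and 142 CPM in PL12, with no overlap of the families. It fell in PLA4 against PL12 (-1.33 ± 0.195, edgeR adjusted p = 0.00427) and in PL1 against PL12 (-0.81 ± 0.193, edgeR adjusted p = 0.0287). Tpx2 fell in PLA4 against PL12 (-0.79 ± 0.228, edgeR adjusted p = 0.0374) and was nearly level in PLA4 against PL1 (-0.09 ± 0.227).

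Top2a untangles DNA, Ncapg is a condensin subunit and Mki67 coats mitotic chromosomes and is the usual marker of cycling cells. Mki67 had 43.4 and 45.8 CPM in PLA, 161 and 310 CPM in PLA4, 567 and 321 CPM in PL1, and 477 and 397 CPM in PL12, with PLA4 replicate 2 just below the lowest PL library. It fell by 9.96-fold in PLA against PL1 (-3.32 ± 0.407, edgeR adjusted p = 0.00323) and by 5.28-fold in PLA against PLA4. In PLA4 against PL1 its estimate was -0.92 ± 0.375 (edgeR adjusted p = 0.167). Top2a had its highest line mean in PL12 rather than PL1, with 65.0 and 64.3 CPM in PLA, 253 and 428 CPM in PLA4, 584 and 384 CPM in PL1, and 681 and 577 CPM in PL12. Ncapg fell least but for Cenpa and Anln in PLA against PL1 (-2.02 ± 0.293, edgeR adjusted p = 0.00533), and it fell in PLA4 against PL12 (-1.33 ± 0.286, edgeR adjusted p = 0.0144).

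Cdc20 activates the APC/C, and Ube2c is the ubiquitin-conjugating enzyme that works with it. Both fell in PLA4 against PL12, Cdc20 by 2.17-fold (-1.12 ± 0.294, edgeR adjusted p = 0.0275) and Ube2c by 2.98-fold (-1.58 ± 0.349, edgeR adjusted p = 0.0158). Ube2c had 12.8 and 12.2 CPM in PLA, 42.0 and 88.9 CPM in PLA4, 112 and 80.5 CPM in PL1, and 189 and 201 CPM in PL12. The PL12 libraries held the highest Ube2c levels, and its fall in PLA against PL12 was 15.6-fold.

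Central spindle and cytokinesis genes include the members with the largest fold in PLA4 against PL1 and in PLA4 against PL12 (Kif23 in both) and in PL1 against PL12 (Anln). Kif23 (ENSMUSG00000032254.10, chromosome 9, 61915905 to 61946774, minus strand) encodes the kinesin MKLP1 of centralspindlin. It had 15.2 and 14.2 CPM in PLA, 36.1 and 47.2 CPM in PLA4, 104 and 78.1 CPM in PL1, and 215 and 192 CPM in PL12. The 4 lines did not overlap. Its mean over lines was 28.1 ± 19.1 CPM for PLA and PLA4 and 147 ± 79.7 CPM for PL1 and PL12 (SD, n = 2 each). Kif23 fell in PLA against PL1 (-2.63 ± 0.203, edgeR adjusted p = 0.00108), in PLA against PL12 (-3.80 ± 0.214, edgeR adjusted p = 3.43e-04), in PLA4 against PL1 (-1.13 ± 0.193, edgeR adjusted p = 0.0253) and in PLA4 against PL12 (-2.29 ± 0.200, edgeR adjusted p = 9.55e-04). It also fell within the families, in PLA against PLA4 (-1.50 ± 0.196, edgeR adjusted p = 0.00401) and in PL1 against PL12 (-1.16 ± 0.193, edgeR adjusted p = 0.00989).

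Racgap1, the partner of KIF23 in centralspindlin, had 14.9 and 15.5 CPM in PLA, 81.2 and 94.0 CPM in PLA4, 116 and 76.4 CPM in PL1, and 124 and 123 CPM in PL12. PLA4 and PL1 overlapped, and the PLA4 against PL12 estimate was -0.49 ± 0.202 (edgeR adjusted p = 0.103).

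Ect2 (ENSMUSG00000027699.19, chromosome 3, 27097222 to 27153878, minus strand) activates RHOA at the division site. It had 9.90 and 9.60 CPM in PLA, 42.7 and 58.5 CPM in PLA4, 89.2 and 72.2 CPM in PL1, and 183 and 156 CPM in PL12. The 4 lines did not overlap, and its fall in PLA against PL12 was the largest of any member, 17.4-fold (-4.12 ± 0.217, edgeR adjusted p = 3.10e-04). Anln (ENSMUSG00000036777.8, chromosome 9, 22332012 to 22389188, minus strand) encodes the ring scaffold anillin. It had 26.0 and 25.7 CPM in PLA, 60.8 and 83.0 CPM in PLA4, 103 and 97.7 CPM in PL1, and 274 and 248 CPM in PL12. PL12 held it at 2.60 times the PL1 level, the largest difference between the PL lines (-1.38 ± 0.168 in PL1 against PL12, edgeR adjusted p = 0.00392). Prc1, the microtubule crosslinker of the central spindle, fell in PLA against both PL lines (-2.72 and -3.02), with -0.64 ± 0.247 in PLA4 against PL12 (edgeR adjusted p = 0.0856).

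**Figure D4:**
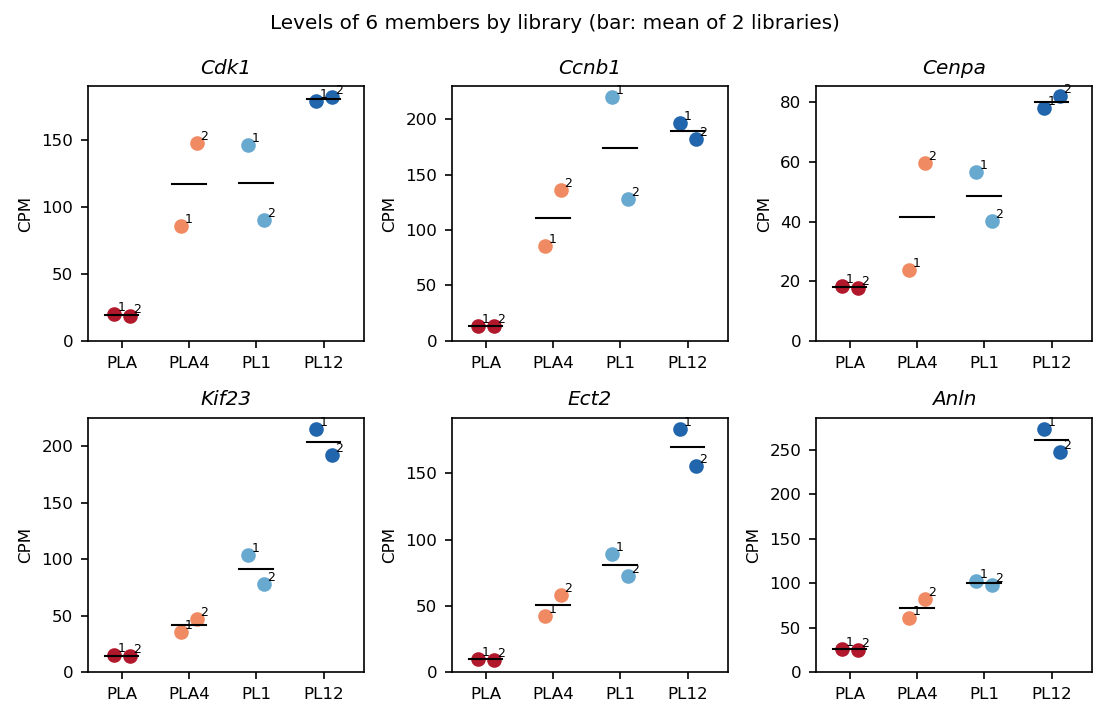
CPM (y axis, from 0) of 6 members in each library (numbered points) by line (x axis), with the mean of the 2 libraries as a bar. Kif23, Ect2 and Anln stand apart in all 4 lines, and Cdk1, Ccnb1 and Cenpa have overlapping PLA4 and PL1 libraries.

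The rest of the programme was read from lists of related genes. Of all genes tested, 14.4% rose in PLA against PL1, 20.4% in PLA against PL12, 4.61% in PLA4 against PL1, 19.2% in PLA4 against PL12 and 14.9% in PLA against PLA4. Of 82 other mitosis genes, 78 fell and 0 rose in PLA against PL1, with a median of -2.42, and 80 fell and 1 rose in PLA against PL12, with a median of -2.81. In PLA4 the numbers were 5 fallen against PL1 (median -0.41) and 35 against PL12 (median -0.70), with 0 risen. In PLA against PLA4, 75 fell and 1 rose. The gene that rose in PLA was Pttg1, securin, the APC/C substrate that guards sister chromatids, named after its values were seen. It averaged 21.2 CPM in PLA, 11.1 CPM in PLA4, 23.1 CPM in PL1 and 7.10 CPM in PL12, and rose in PLA against PL12 (1.58, edgeR adjusted p = 0.00304). In all 4 comparisons between families 4 of the 82 fell: Cdca2, a phosphatase regulator on chromosomes, Pbk, a mitotic kinase, Sgo2a, a protector of centromeric cohesion, and Zwilch, of the kinetochore RZZ complex. Sgo2a had 8.42 and 8.49 CPM in PLA, 46.1 and 46.4 CPM in PLA4, 122 and 108 CPM in PL1, and 71.2 and 56.8 CPM in PL12, and its PLA4 libraries stood at one level between PLA and PL12.

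A further 28 genes encode mitotic machinery that is present through the cycle (APC/C core, cohesin, dynactin and others), and their medians lay close to 0. In PLA against PL1, 6 fell and 3 rose, with a median of -0.20, and in PLA against PL12, 9 fell and 0 rose, with a median of -0.18. Of all genes tested, 13.0% fell and 14.4% rose against PL1, and 17.3% fell and 20.4% rose against PL12. The calls in PLA thus leaned in the members' direction. In PLA4, 1 fell and 2 rose against PL1, and 6 fell and 2 rose against PL12. The genes nearest to a call in all 4 comparisons, Stag1 (cohesin), Cdc16, Anapc16 and Anapc2 (APC/C), had largest adjusted p values from 0.0887 to 0.466 by edgeR over those comparisons.

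Of 18 S phase genes, 16 fell in PLA against PL1 (median -2.20), 17 in PLA against PL12 (-2.21), 6 in PLA4 against PL1 (-0.56) and 11 in PLA4 against PL12 (-0.63), with 0 risen, and 6 fell in all 4. Rrm2, the ribonucleotide reductase subunit, had 51.3 and 51.2 CPM in PLA, 41.4 and 61.7 CPM in PLA4, 189 and 127 CPM in PL1, and 226 and 212 CPM in PL12. Its PLA4 libraries lay on either side of the PLA level. Mcm3, of the replicative helicase, had 21.7 and 21.6 CPM in PLA, 72.2 and 102 CPM in PLA4, 183 and 164 CPM in PL1, and 142 and 131 CPM in PL12. Chaf1b, a chromatin assembly factor, and Cdt1, which licenses origins, fell in all 4 comparisons too.

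Among 22 genes of the E2F, MYB and FOXM1 regulators, 10 fell and 0 rose in PLA against PL1 (median -0.36), 13 fell and 3 rose in PLA against PL12 (-0.63), 1 fell in PLA4 against PL1, and 9 fell and 3 rose in PLA4 against PL12, with 0 in all 4. Tfdp1, the E2F partner, had 75.2 and 74.6 CPM in PLA, 88.7 and 129 CPM in PLA4, 210 and 157 CPM in PL1, and 210 and 201 CPM in PL12, and its largest adjusted p over the 4 comparisons was 0.0791 by edgeR. E2f8, Lin9 and Nfyc were the next nearest. Foxm1 and Mybl2, which activate the mitotic genes and were named after their values were seen, fell in PLA against PL1 (log2 fold changes -2.75 and -2.71) and against PL12 (-2.93 and -3.71). In PLA4 against PL12, Mybl2 fell (-1.44, edgeR adjusted p = 0.0141) and Foxm1 did not pass (-0.47, edgeR adjusted p = 0.436).

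Of 10 genes of G1 cyclins and kinases, 5 fell and 1 rose in PLA against PL1, 4 fell and 1 rose in PLA against PL12, 1 rose in PLA4 against PL1, and 6 fell and 1 rose in PLA4 against PL12. Ccne2, cyclin E2, had 3.59 and 3.73 CPM in PLA, 14.3 and 14.2 CPM in PLA4, 26.4 and 18.3 CPM in PL1, and 42.3 and 37.0 CPM in PL12, the same order of line means as in 32 of the members. Cdc25a and Ccne1 were the others nearest to a call in all 4 among genes with 1 direction. Cdk4 showed no common direction between the families. It was higher in PLA4 (468 and 613 CPM) than in PL1 (407 and 353 CPM) or PL12 (304 and 314 CPM). In PLA it was lowest (220 and 214 CPM).

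The 16 CDK inhibitors and quiescence genes split: 2 fell and 6 rose in PLA against PL1 (median 0.13), 3 fell and 8 rose in PLA against PL12 (0.83), and 5 fell and 6 rose in PLA against PLA4 (0.33). In PLA4, 2 fell and 2 rose against PL1, and 3 fell and 4 rose against PL12. Cdkn1a, which encodes the CDK inhibitor p21, had 561 and 573 CPM in PLA, 144 and 108 CPM in PLA4, 233 and 247 CPM in PL1, and 319 and 330 CPM in PL12. It rose in PLA against each PL line (1.24 and 0.80) and fell in PLA4 against each of them (-0.93 and -1.36, edgeR adjusted p of at most 0.0275 over the 4 comparisons), so that the PLA lines lay on both sides of the PL lines. Btg1, an antiproliferative factor, averaged 281 CPM in PLA, 267 CPM in PLA4, 165 CPM in PL1 and 106 CPM in PL12. Sesn1 and Cdkn1c showed no common direction between the families.

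**Figure D5:**
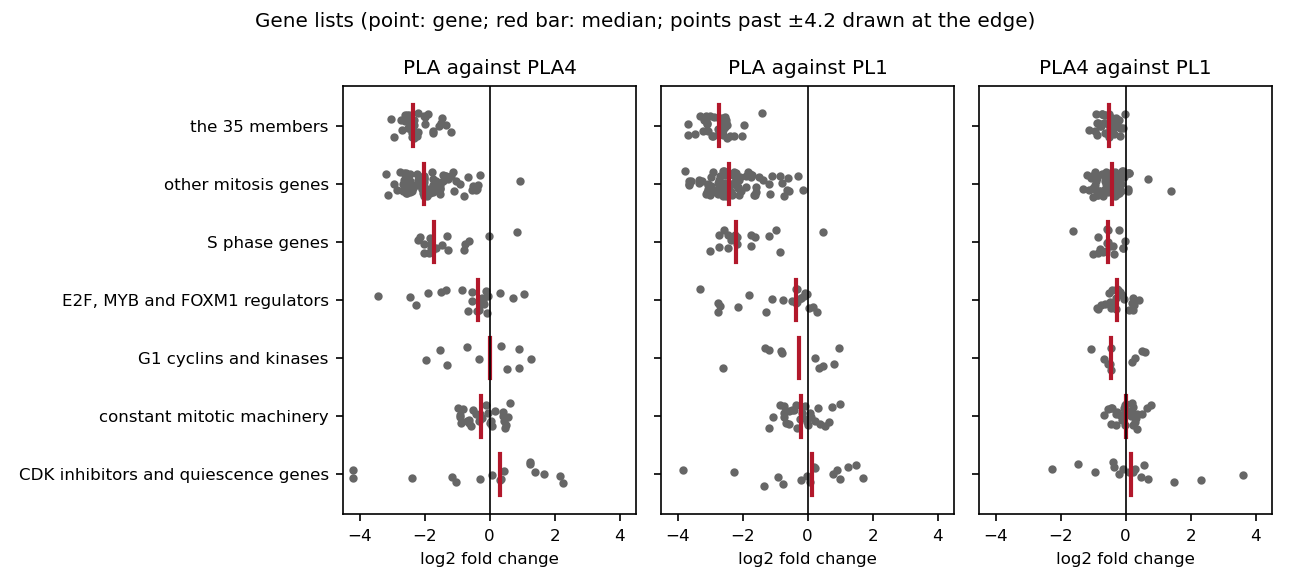
Log2 fold change (x axis) of each gene (points) of 7 lists (rows), with the list's median as a red bar, for PLA against PLA4, PLA against PL1 and PLA4 against PL1. The medians of the members, the other mitosis genes and the S phase genes lie left of 0 in the first and second panels (members -2.35 and -2.72). In the third panel the median was -0.51 for the members and -0.56 for the S phase genes. The median of the constant machinery was -0.20 in the second panel, with genes from -1.19 to 0.99, and -0.002 in the third.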

How the data were processed

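Bulk RNA-seq of 8 libraries from 4 mouse LUSC lines was analysed. RNA was column-purified, amplified as SMARTer PCR cDNA and made into Nextera XT libraries, per the labels' protocols. Per the file headers, the authors deposited RSEM's expected counts and TPM for each gene. FastQC, STAR, RSEM, DESeq2 and GRCm38 are named, without versions, per the submitters' processing notes. The annotation release and the strand setting are not given in the sources used here. Of the deposited counts 14.2% were not whole, and all were rounded. The labels name no molecular identifiers, so depth bounds counting error only.

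Libraries were grouped by line from their titles. The 18648 genes that passed filterByExpr (minimum count 10, minimum total 15) were fitted with edgeR 4.0.16 (limma 3.58.1, R 4.3.3), TMM scaling and a mean for each line, which leaves 4 residual degrees of freedom. The quasi-likelihood F test gave 6 comparisons of lines, with Benjamini-Hochberg adjustment over all genes and a threshold of 0.05. Standard errors came from the F statistic. A second fit used 4 summed line profiles and 18859 genes. CPM values carry TMM factors, and logs of CPM or TPM used a pseudocount of 1. The fits were run on simulated counts in which the lines of a family shared the same mean, without spread between lines. That run therefore cannot show how the fit of summed profiles behaves where lines differ. Alternatives were DESeq2 1.42.0, its size factors, no filter, limma on log2(TPM + 1), a replicate block, the compared lines alone and libraries left out.

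Named were all members, Ackr3, 4 genes of each further list with the smallest largest adjusted p over the 4 comparisons between families, and the 3 genes of highest mean CPM per marker list. Other genes (in the marker lists Trp63, Ptprc, Tyrobp, Cd3e, Lum, Thy1, Dcn, Col1a2, Col3a1 and Pdgfrb) were named after their values were seen. Members and lists were chosen with earlier results of these data known.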

Additional observations from a re-analysis of the deposited data

How the results depend on the processing

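The fit of summed line profiles called 0 members under every alternative run, with 361 genes in all called by DESeq2, 1 without the filter on low counts and 0 in the others. As single libraries were left out, 32 to 35 members fell in PLA against PL1 and 34 to 35 in PLA against PL12. Members fallen in all 4 comparisons between families (2) numbered 5 with DESeq2, 1 with its size factors and 1 with limma on log2(TPM + 1). In PLA4 against PL1 (2) the numbers were 6, 1 and 1, with 4 without the filter on low counts and 0 when only these 2 lines were fitted. With single libraries left out, the ranges were 0 to 10 for all 4 comparisons, 0 to 11 for PLA4 against PL1, 6 to 30 for PLA4 against PL12 (19), 21 to 35 for PLA against PLA4 (34) and 1 to 11 for PL1 against PL12 (6). Where a line is left with 1 library, that library is assumed to vary like the other lines.

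Leaving out 2 libraries was added after the data were seen. Without PL1 replicate 1 and PLA4 replicate 2, the counts were 26 for all 4 comparisons, 26 for PLA4 against PL1, 35 for PLA4 against PL12 and 32 for PL1 against PL12. Without PL1 replicate 2 and PLA4 replicate 1, they were 25, 26, 33 and 19 (16 lower and 3 higher). Under both choices, calls rose over all genes in each of these comparisons too, so the rise is not particular to the members. These choices remove the widest spread by construction, so their low p-values carry no weight of their own. Kif23 fell in all 4 comparisons under 10 of 15 alternatives (largest adjusted p 9.1e-05 to 0.0855) and Kif4 under 5 of 15 (2.44e-04 to 0.136).

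The count over all genes moved too, and it fell in every comparison of lines when a PLA or PL12 library was left out. In PLA4 against PL1 it was 1593, against 3333 with DESeq2, 547 with a replicate block, 9 with only these lines, 199 to 2648 with single libraries left out, and 8639 and 7378 without the library pairs. In all 4 comparisons it was 372, against 707 with DESeq2, 132 with the block, 36 to 763 with single libraries left out, and 2446 and 2072 without the pairs. In PLA against PL1 it was 5100, and 1090 or 1093 without a PLA library. In PLA against PL12 it was 7035, and 12416 with only these lines.

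In the labels, the lines share replicate numbers. Deviations of same-numbered libraries correlated at -0.194 to 0.0148, so the values gave no sign of pairing by number. The labels do not say whether same-numbered libraries were handled together, and the correlations cannot settle it. With a replicate block, the counts were 0 for all 4 comparisons, 0 for PLA4 against PL1 and 12 for PLA4 against PL12.

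Under at least 1 alternative, estimates turned sign for 11 members in PLA4 against PL1 (Aurka, Birc5, Bub1b, Cdk1, Cenpa, Kif11, Kif20a, Ndc80, Nusap1, Racgap1 and Tpx2). Their main estimates ran from -0.40 (Birc5) to -0.02 (Cdk1). In PL1 against PL12, 10 members turned sign, with main estimates from -0.38 (Birc5) to 0.18 (Nuf2). In PLA4 against PL1, with 1 or 2 libraries left out, Cdk1 ranged from -0.44 to 0.37, Cenpa from -1.01 to 0.30 and Aurka from -0.59 to 0.0107. In PL1 against PL12, Ccnb1 ranged from -0.58 to 0.22. The cause was not tested. Power at the size seen between PLA4 and PL1 was not tested.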
